A study of Homo sapiens with 3 samples.

Results

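The genes described here are 9 members of YAP and TEAD signalling and its targets: YAP1, WWTR1, TEAD1, TEAD2, TEAD3, TEAD4, CCN1, CCN2 and AMOTL2. They were given as a list and are 9 of the 20033 protein-coding genes in a RefSeq gene table of GRCh38.p14; all 9 were found in it. For each gene, every SOX4 summit inside it or within 50 kb of its ends was collected. The genes were chosen with results of these summit lists known, and the summits described were selected on their measured positions in these lists, so all counts and scores below are a description and no test was made of them. SOX4, a transcription factor with a high-mobility-group DNA-binding domain, was mapped by ChIP-seq, the sequencing of DNA that is immunoprecipitated with a protein, in the BT549 line of human triple-negative breast cancer. The 3 libraries, named replicates 1, 2 and 3 after their titles, form 1 group: BT549 cells with a passages entry of 5, whose titles all carry the letters UT, which the labels do not spell out. No agent or genetic change is named. Separate cultures are not mentioned, and so the spread among libraries may be technical. Control libraries (input or IgG) were not used, and a summit list cannot be checked against markers of the cell line.

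YAP1 and WWTR1, whose protein is called TAZ, are transcriptional co-activators of the Hippo pathway. LATS kinases phosphorylate them and keep them out of the nucleus; when they are not phosphorylated they enter it and bind TEAD1 to TEAD4, the DNA-binding partners through which they switch on target genes. CCN1 and CCN2 encode secreted matricellular proteins, and AMOTL2 encodes a scaffold of the angiomotin family that binds YAP1; all are widely used as readouts of YAP and TEAD activity in epithelial and mesenchymal cells.

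The list of replicate 1 has 1368 summits, that of replicate 2 has 1713 and that of replicate 3 has 4430. Of these, 1264, 1588 and 4304 lie on assembled chromosomes. Medians, ranks and percentages of a list count all of its summits, also those elsewhere, which lie in no gene used here. Each summit is the 1 bp top of a peak with a score from the authors' peak caller on a −log10 scale, and whether it stands for a p or a q is not stated by the labels or files. Read depth is unknown, and scores are compared only within a list, whose medians were 6.12, 5.57 and 5.58. A summit was called shared when another library had one within 200 bp. Neighbouring summits no more than 200 bp apart were merged, over all libraries, as 1 region.

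SOX4 summits lay inside 5 of the 9 genes: YAP1, WWTR1, CCN1, CCN2 and AMOTL2, beside 14.6% of all coding genes with a summit inside. The 9 genes span from 3.19 kb (CCN1) to 270 kb (TEAD1). The shares of all coding genes, here and below, are not matched for gene length. Of the 9 genes, 7 had a summit of any library inside them or within 50 kb, beside 35.0% of all coding genes; the other two, TEAD1 and TEAD4, had none. CCN1 was reached in all 3 libraries, as were 3.56% of coding genes. Together with YAP1 and CCN2, which were reached in 2, it made 3 genes of at least 2 libraries, beside 10.0%. In total 12 summits fell in the windows, of which replicate 1 gave 3, replicate 2 gave 2 and replicate 3 gave 7 (mean 4.0 ± 2.65, SD, n = 3). These are 0.219% (exact 95% binomial interval 0.0452 to 0.640%), 0.117% (0.0141 to 0.421%) and 0.158% (0.0636 to 0.325%) of the lists. The intervals cover counting error only, and with genes chosen on these lists they do not compare the libraries. Replicate 3, the longest list, reached 6 of the genes, beside 30.9% of all coding genes. Replicate 1 reached 3 (9.19%) and replicate 2 reached 2 (8.46%). Without replicate 3, YAP1, CCN1 and CCN2 were the genes with a summit (3 of 9, beside 13.6% of all coding genes).

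**Figure D1:**
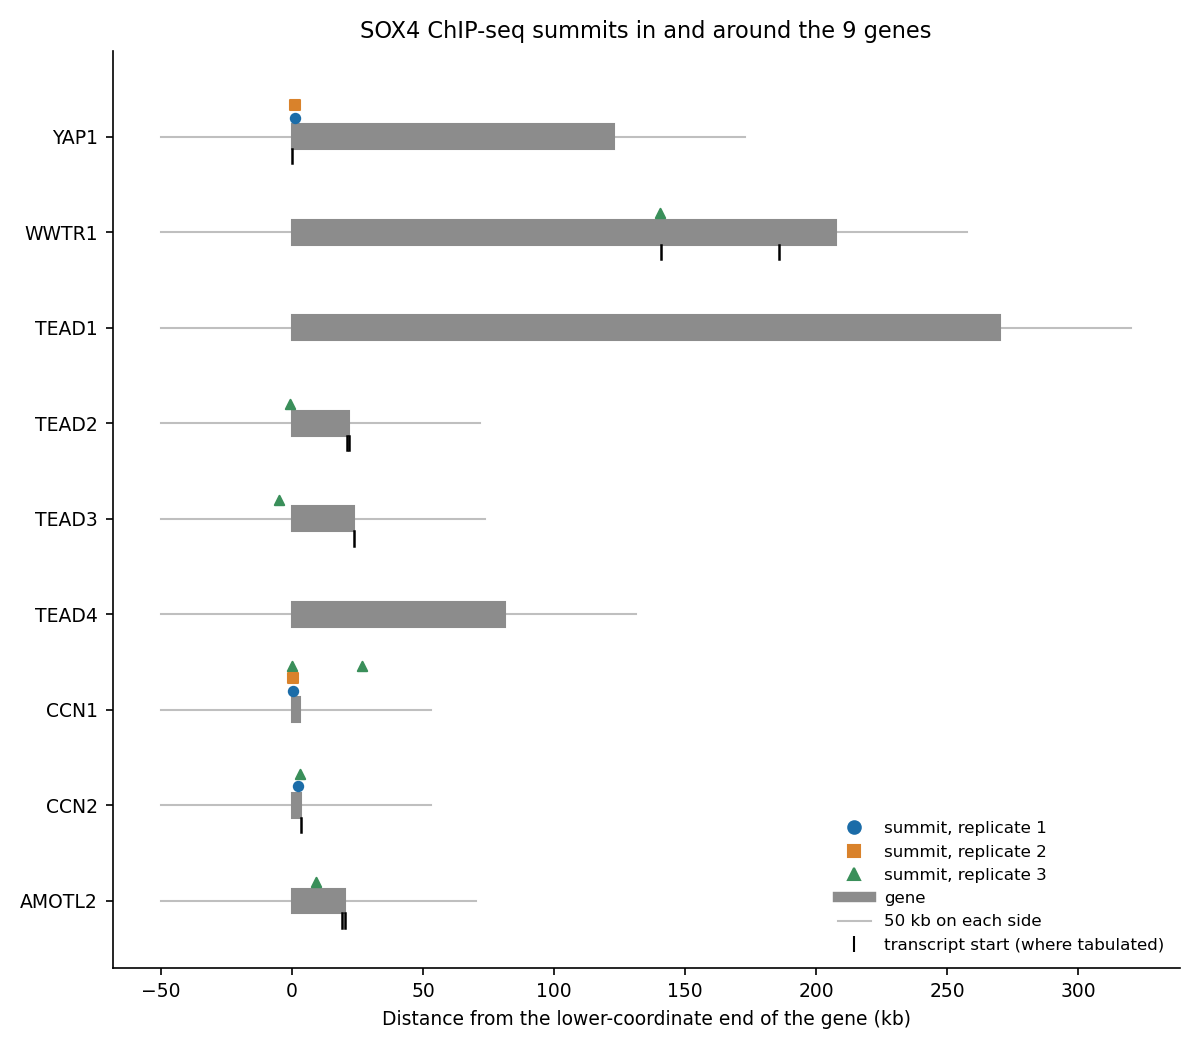
Positions of the 12 summits along the 9 genes. The x axis is the distance in kb from the lower-coordinate end of each gene, grey bars are genes, thin lines are the 50 kb on each side, ticks under a bar are transcript starts where tabulated, and symbols, stacked above their gene, are summits of replicates 1, 2 and 3. TEAD1 and TEAD4 are empty, and the summits of TEAD2 and TEAD3 lie outside those genes.

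The table of RefSeq promoters (GRCh38.p14, 250 bases before to 50 after a transcript start) matched 6 of the 9 genes, with 9 windows; CCN1, TEAD1 and TEAD4 were not matched. The 250 bases before the start are shown for CCN2, YAP1 and WWTR1, whose summits lie nearest to a tabulated start of their own, to show which SOX and TEAD words these promoters hold. Capitals mark AACAAT and ACAAAG (SOX), GGAATG (TEAD) and TGANTCA (AP-1) on either strand, where N is any base. For WWTR1, which has more than 1 start in the table, the start nearer to the summit was taken. The windows lie on the minus strand at chr6:131951373-131951622 (CCN2) and chr3:149658026-149658275 (WWTR1), and on the plus strand at chr11:102110197-102110446 (YAP1).
CCN2: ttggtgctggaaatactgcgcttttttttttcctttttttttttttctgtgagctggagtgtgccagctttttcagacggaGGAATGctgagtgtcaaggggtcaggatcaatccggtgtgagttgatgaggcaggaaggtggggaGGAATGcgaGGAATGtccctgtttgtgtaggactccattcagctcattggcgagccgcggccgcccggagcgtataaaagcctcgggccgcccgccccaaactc
YAP1: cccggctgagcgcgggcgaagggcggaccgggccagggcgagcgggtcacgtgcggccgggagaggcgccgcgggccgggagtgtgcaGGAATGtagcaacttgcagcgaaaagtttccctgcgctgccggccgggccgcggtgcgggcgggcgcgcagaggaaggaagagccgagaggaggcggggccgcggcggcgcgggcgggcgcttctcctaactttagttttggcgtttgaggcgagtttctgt
WWTR1: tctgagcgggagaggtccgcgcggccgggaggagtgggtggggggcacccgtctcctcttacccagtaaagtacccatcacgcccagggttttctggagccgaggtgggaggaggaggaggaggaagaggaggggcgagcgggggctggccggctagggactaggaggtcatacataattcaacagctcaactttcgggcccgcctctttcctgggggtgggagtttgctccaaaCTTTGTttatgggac

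The CCN2 promoter carries GGAATG at 3 places, beginning 169, 104 and 95 bases before the start. Among 35116 promoter windows of 300 bases, 14.0% hold at least 1 GGAATG and 0.128% hold 3 or more. YAP1 has 1 GGAATG, 162 bases before its start, and AMOTL2, not printed, has 1 on the other strand, 69 bases before the start nearer to its summit. WWTR1 has none of this word, and has ACAAAG on the other strand 15 bases before the start. This SOX word is also in the other WWTR1 window and in both TEAD2 windows, not printed, and 16.1% of all windows hold it. AACAAT, held by 10.1% of all windows, and TGANTCA, held by 7.71%, were in none of the 9 windows of these genes. No matches of the SOX, TEAD and AP-1 words overlap in the 3 printed sequences. GGGCGG, a GC box word, was in 45.0% of all windows, with 2 or more in 26.7% and 3 or more in 15.8%. It occurred 3 times in the windows of CCN2 and YAP1 and 2 times in the AMOTL2 window nearer to its summit. The other AMOTL2 window and both WWTR1 windows had none. TEAD3 had it 5 times, and the TEAD2 windows had it 3 times and 1 time. No summit fell inside a window of these genes. The nearest were the CCN2 summit 89 bp after the start and the WWTR1 summit 175 bp after it. The YAP1 summits lay 1042 and 1086 bp and the AMOTL2 summit 10180 bp after the nearest start, so the letters under the summits are not among those shown.

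YAP1, the co-activator at the centre of the pathway, carried a site near its start in 2 libraries (chromosome 11, gene 102110447 to 102233424, plus strand). The summit of replicate 1 was at 102111533 and scored 5.68, rank 753 of its list. The summit of replicate 2 was at 102111489 and scored 5.36, rank 995. They lay 44 bp apart, 1086 and 1042 bp after the transcript start and inside the gene. A tabulated start of another gene, YAP1-DT, was slightly nearer to them, at 1076 and 1032 bp. Both scores were below the medians of their lists, with 45.0% and 41.9% of the summits of the same list scoring lower. Replicate 3 had no summit within 50 kb; its nearest was 84.3 kb from the gene and scored 4.14. The longest list thus lacked the YAP1 site that the shorter lists shared. Whether the site is exonic or intronic is not given here, since the gene table holds spans only.

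WWTR1, which encodes TAZ, had a single summit, in replicate 3 (chromosome 3, gene 149517235 to 149724788). It lay inside the gene at 149657850, 175 bp after the start at 149658025, and 45423 bp after the other listed start. Its score of 5.48 ranked 2317 of 4430, with 47.6% of the list scoring lower. The nearest summit of replicate 2 was 88.2 kb from the gene and that of replicate 1 was 3356 kb away. The co-activator genes therefore had sites near a start in different libraries: YAP1 in replicates 1 and 2, WWTR1 in replicate 3.

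CCN1, a secreted matrix protein gene, was the 1 gene of the list with summits in all 3 libraries (chromosome 1, 85580761 to 85583950). All 3 libraries placed a summit in the first 500 bp from the lower-coordinate end of the gene. Replicate 1 had it at 85581224 with a score of 5.36, replicate 2 at 85581175 with 3.09, and replicate 3 at 85580817 with 5.52. The summits of replicates 1 and 2 lay 49 bp apart and formed a region, while that of replicate 3 lay 358 bp from the nearer of them and was not counted as shared. With a gap of 500 bp the 3 summits joined. Below these scores lay 37.8% of the first list, 0.934% of the second and 49.0% of the third. The replicate 2 score was thus near the bottom of its list, at rank 1672 of 1713, and was held by 26 summits. With each list held to the length of the shortest, the best 1368 summits, it dropped out and CCN1 had no region. Replicate 3 had a further summit at 85607269, 23.3 kb beyond the gene and inside no gene of the table, with a score of 6.87 (rank 1129, 74.4% lower). DDAH1, which encodes an enzyme that breaks down methylated arginines, begins 2975 and 3024 bp from the region's summits of replicates 2 and 1. It begins 2617 bp from the replicate 3 summit inside CCN1. The region is thus close to both genes.

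CCN2, also called CTGF, had a summit in replicates 1 and 3 and none in replicate 2 (chromosome 6, 131948176 to 131951372, minus strand). The replicate 3 summit at 131951283 lay 89 bp after the start and scored 7.12, rank 1014 of 4430, above 76.9% of its list. The replicate 1 summit at 131950276 lay 1096 bp after the start and scored 5.69, rank 749 of 1368, above 45.0% of its list. They were 1007 bp apart, too far to count as 1 site by the rule of 200 bp or by that of 500 bp. Both fell also inside CCN2-AS1, a long non-coding RNA gene that overlaps CCN2. The nearest summit of replicate 2 was 1289 kb away. CCN2 was thus reached in 2 libraries without a shared position.

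**Figure D2:**
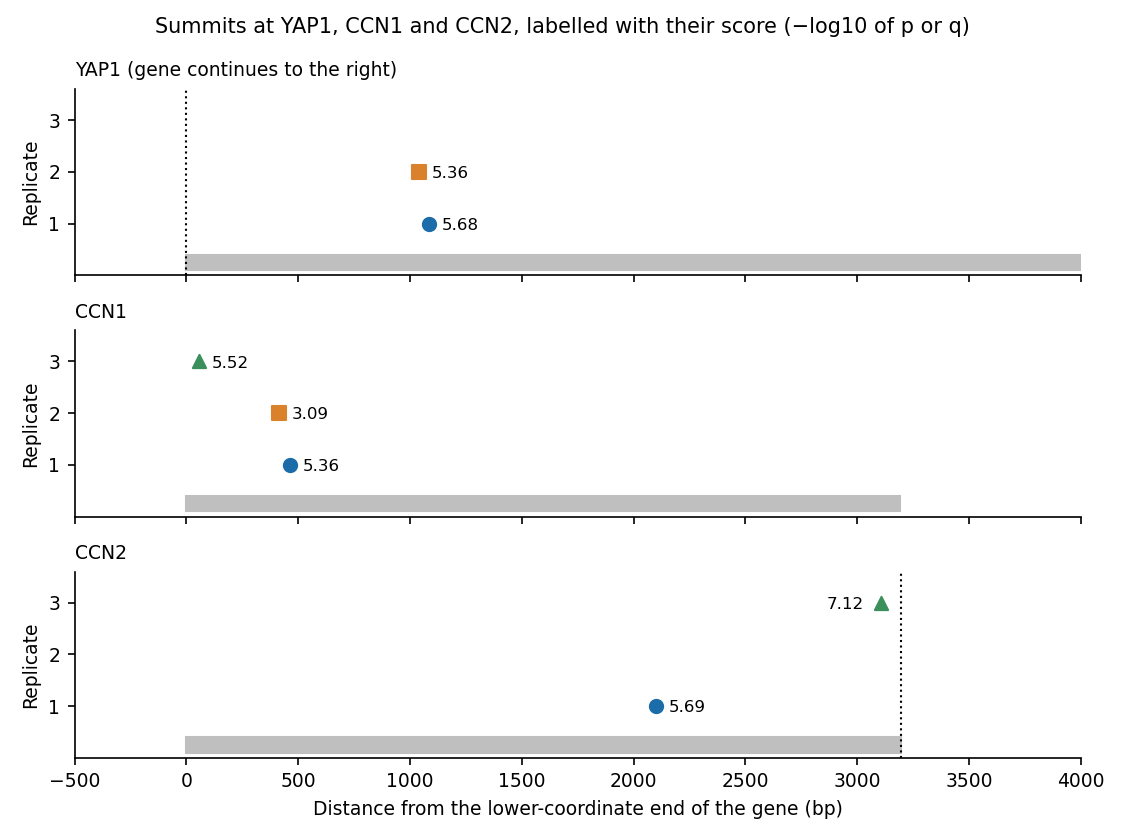
Summits in the first 4 kb from the lower-coordinate end of YAP1, CCN1 and CCN2. The x axis is distance in bp, the y axis is the replicate, grey bars are genes, dotted lines are tabulated transcript starts, and numbers are scores. Replicates 1 and 2 sit 44 bp apart at YAP1 and 49 bp apart at CCN1, and the CCN2 summits are 1007 bp apart.

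AMOTL2, the angiomotin-family gene, had 1 summit, in replicate 3 (chromosome 3, 134355345 to 134375417, minus strand). It lay in the middle of the gene at 134364267, 10180 bp after the nearer start, and scored 4.93 (rank 2787, 37.1% lower). The next libraries were far off, at 347 kb in replicate 2 and 2377 kb in replicate 1. No other coding gene lies within 50 kb of AMOTL2 or of CCN2.

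The 4 TEAD genes, which encode the DNA-binding partners, had no summit inside them in any library. TEAD2 (chromosome 19, 49340595 to 49362416, minus strand) had a replicate 3 summit at 49339844, 751 bp beyond its lower-coordinate end, which is the end away from its starts. With a score of 8.16 (rank 629, above 85.8% of the list) it stood highest of the 12 summits within its own list. That summit falls inside CD37, a tetraspanin gene of leukocytes, and SLC6A16, a gene of the solute carrier family of sodium-coupled transporters. TEAD3 (chromosome 6, 35473597 to 35497079, minus strand) had a replicate 3 summit at 35468476, 5.12 kb beyond the end away from its start. Its score was 4.47 (rank 3394, 23.3% lower), and it lay inside the ribosomal protein gene RPL10A, 75 bp from a start of that gene. The sites counted for TEAD2 and TEAD3 thus lie inside other genes.

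TEAD4 (chromosome 12, 2959397 to 3040676) had its nearest summit at 82.4 kb in replicate 3, with a score of 4.11. In replicates 1 and 2 the nearest were at 703.5 and 703.4 kb and scored 24.5 and 33.4. TEAD1 (chromosome 11, 12674421 to 12944737), the longest of the 9 genes at 270 kb, had its nearest at 174 kb in replicate 3, 272 kb in replicate 1 and 519 kb in replicate 2. The 50 kb rule did not divide close values. The farthest summits it took in were those at 5.12 kb from TEAD3 and 23.3 kb from CCN1. The nearest it left out were those at 82.4 kb from TEAD4, 84.3 kb from YAP1, 88.2 kb from WWTR1 and 91.9 kb from AMOTL2, and within 100 kb there were no others.

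**Figure D3:**
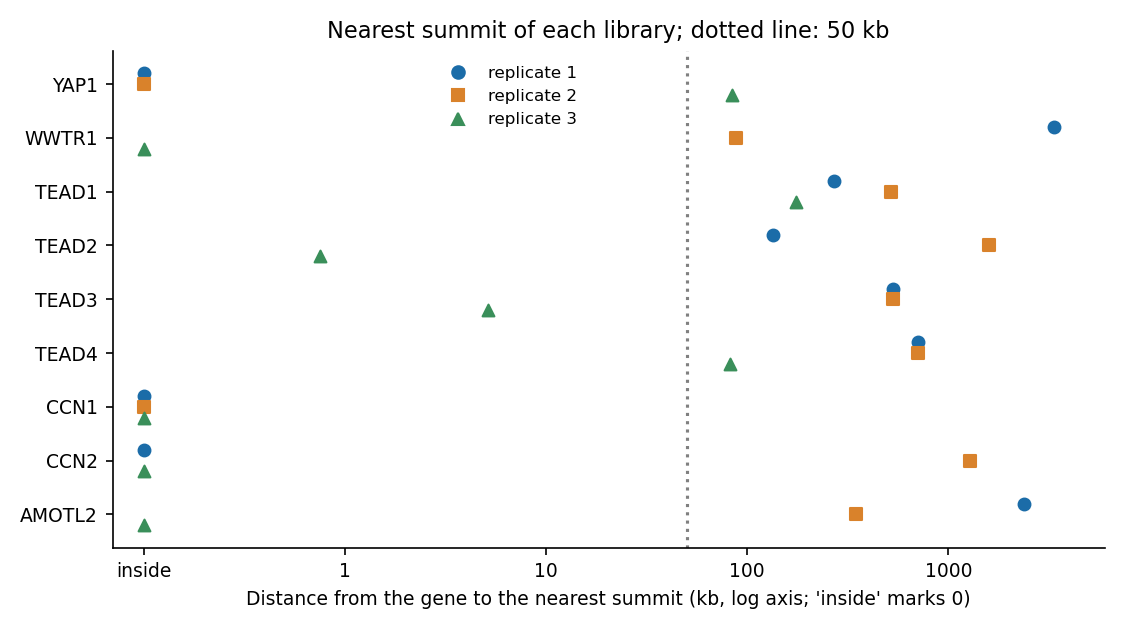
Distance in kb (log axis) from each of the 9 genes to the nearest summit of replicates 1, 2 and 3; summits inside a gene are drawn at the mark "inside", and the dotted line is 50 kb. CCN1 is the gene with all 3 symbols inside, and TEAD1 and TEAD4 have all symbols beyond the line.

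Most of these sites stood in the middle of their lists. The share of the same list scoring lower ran from 0.934 to 85.8% over the 12 summits, with a median of 45.0%. Of the 12 summits, 3 were at or above the median of their list: those of replicate 3 at TEAD2, at CCN2 and 23.3 kb from CCN1. Those at TEAD2 and CCN2 were also above the upper quartile. All 5 summits of replicates 1 and 2 were below the list median. With summits under the list median left out, 3 genes had a summit, beside 19.8% of coding genes, and none had one in 2 libraries, beside 4.78%. Sharing was found for 4 of the 12 summits (33.3%), those of replicates 1 and 2 at YAP1 and CCN1, and for none of the 7 of replicate 3. In the whole lists 52.9%, 43.4% and 18.3% of the summits of replicates 1, 2 and 3 were shared.

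**Figure D4:**
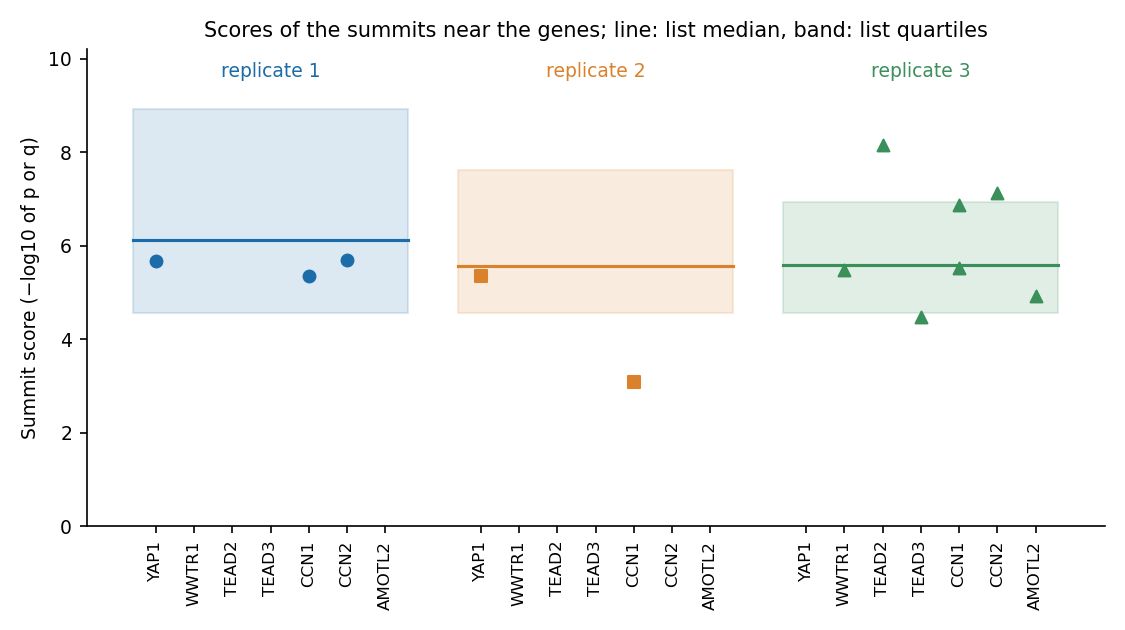
Score of each of the 12 summits (y axis, −log10 scale) by gene and replicate; lines are list medians and bands run from the first to the last quartile of each list. The summits of replicates 1 and 2 lie below their lines, and that of TEAD2 in replicate 3 is the highest at 8.16.

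Regions of at least 2 libraries, inside a gene or within 5 kb, were found at 2 of the 9 genes, YAP1 and CCN1, beside 3.47% of all coding genes (696 of 20033). Both regions came from replicates 1 and 2, so without either of these libraries the count was 0. It was 1, YAP1, with each list held to the length of the shortest, and 0 with summits under the list median left out. No gene had a region of all 3 libraries, beside 0.913% of coding genes. Summits of any library within 5 kb were found at 6 of the 9, beside 20.4%, and those of replicate 3 alone at 3 (WWTR1, TEAD2 and AMOTL2), beside 13.1%. Of the 6 genes with tabulated starts, 2 had a summit within 1 kb of one, WWTR1 and CCN2, beside 16.3% of 15842 coding genes. The YAP1 summits, at 1042 and 1086 bp, fell just outside that distance.

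For YAP1 and for CCN1, the other coding genes with a region from replicates 1 and 2 alone numbered 80, which in each case includes the other of these 2 genes. Likeness was the sum, over the 2 libraries, of the difference in the percent of the list scoring lower. The most like YAP1 were ZFHX4 on chromosome 8 (13.8 percentage points, scores 6.63 and 5.57), HIF1A on chromosome 14 (16.6 points, 5.603 and 6.18) and GPT on chromosome 8 (24.3 points, 7.02 and 4.77). HIF1A encodes the oxygen-regulated subunit of hypoxia-inducible factor, and GPT encodes alanine aminotransferase. The most like CCN1 was its neighbour DDAH1, with a difference of 0 because it has the same region. CEP350 on chromosome 1 (22.6 points, 5.69 and 3.97) and TRPS1 on chromosome 8 (30.1 points, 7.45 and 3.19) followed.

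The rest of the pathway was then set beside these genes, with summits inside a gene or within 5 kb. Upstream kinases and scaffolds of the Hippo cascade had a summit of any library at 12 of 22 genes (54.5%), beside the 20.4% of all coding genes. Replicate 3 gave 10 of them (beside 17.9% of coding genes), replicate 1 gave 4 (4.6%) and replicate 2 gave 3 (4.53%). Without replicate 3 the count was 6 of 22, beside 7.32% of coding genes. The 1 gene of this list with a region of 2 libraries (beside 3.47% of coding genes) was SAV1, which encodes the scaffold that holds the Hippo kinases together. Its summits lay 219 bp (replicate 2, score 4.71) and 60 bp (replicate 3, score 4.47) outside the higher-coordinate end of the gene.

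Within 1 kb of a gene end, inside or outside, 8 of the 22 had a summit, beside 15.1% of coding genes. The genes named next were taken as those nearest to an end. LATS1 and LATS2, the kinases that phosphorylate YAP1 and TAZ, had replicate 3 summits 29 and 134 bp inside their ends, with scores of 5.37 and 6.19. STK4, the kinase upstream of them also called MST1, had one of replicate 3 145 bp inside with a score of 4.43. STK38L, a relative of the LATS kinases, had a replicate 1 summit 25 bp inside (5.61), and the kinase gene TAOK1 had one of replicate 1 147 bp outside (5.41). STRN, which encodes a scaffold of the phosphatase complex that acts on the Hippo kinases, had a replicate 3 summit 166 bp inside (4.77). STK3, also called MST2 and named after its values were seen, differed from these. It lies on chromosome 8 and held 8 summits from all 3 libraries, none within 100 kb of its ends and none shared. By the same rule, any library reached 50.6% of the coding genes of chromosome 8; the part of this in the STK3 count was not tested.

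Partners and inhibitors of YAP and TAZ had a summit at 6 of 21 genes (28.6%), beside 20.4% of coding genes. YWHAZ, a 14-3-3 protein gene on chromosome 8, had the 1 region of 2 libraries, beside 3.47% of coding genes, with summits of replicate 1 (score 2.85) and replicate 2 (6.01) 633 and 600 bp inside its end and 2 more of replicate 3 at 1074 and 1900 bp. PTPN14, a phosphatase gene whose product binds YAP, had a replicate 3 summit 305 bp outside its end (6.499). VGLL4, which encodes a competitor of YAP for TEAD, had 1 of replicate 2 inside the gene, 16.6 kb from an end (4.43). RUNX2, BTRC and RUNX1 had single summits 49.5, 87.7 and 102 kb inside. Without replicate 3 the list had 3 of 21, beside 7.32%.

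Target genes of YAP and TEAD other than CCN1, CCN2 and AMOTL2 had a summit at 4 of 24 (16.7%), near the 20.4% of all coding genes, and no region of 2 libraries. All 4 came from replicate 3, so without it the count was 0. NT5E, which encodes the ecto-enzyme CD73, had its summit 267 bp inside (score 7.35). DOCK5 had it at 344 bp (6.57), GADD45A, a stress-response gene, at 1159 bp (6.27) and ASAP1 at 85.2 kb (8.78). DOCK5 and ASAP1 lie on chromosome 8, and 2 of 21 genes were left without that chromosome, beside 19.3% of coding genes. The other CCN genes, CCN3 to CCN6, had a summit at 0 of 4, beside the same 20.4%. Of these 4 genes, 2 lie on chromosome 8, where 50.6% of coding genes had a summit by the same rule.

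**Figure D5:**
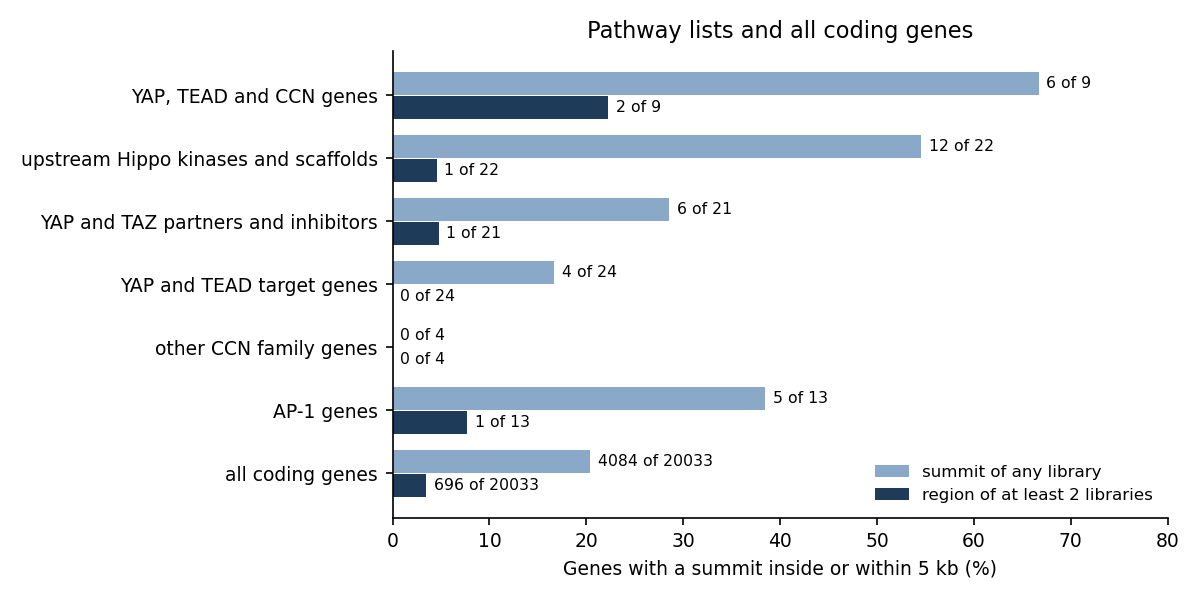
Share of genes (x axis, percent) with a summit inside or within 5 kb, for the 9 genes, 5 pathway lists and all coding genes; light bars are summits of any library, dark bars are regions of at least 2 libraries, and labels give the counts. The 9 genes, chosen with these results known, show 6 and 2 of 9, and all coding genes 4084 and 696 of 20033.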

How the data were processed

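SOX4 ChIP-seq in BT549 cells gave 3 deposited summit lists, called per library by the authors. Per the labels, chromatin was fixed with DSG and formaldehyde and immunoprecipitated with an Abcam SOX4 antibody. The submitters' processing notes name BWA, SAMtools and MACS2 without versions. The deposited score is on the −log10 scale of MACS2 (p or q), and it served to rank summits inside each list, never across lists. The notes name hg19, but contig names and positions are those of GRCh38, and genes and promoters came from RefSeq tables of GRCh38.p14.

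Distances, sharing within 200 bp, regions and motif words were computed with Python 3.11.15, pandas 2.3.3 and numpy 2.4.6, and intervals with scipy 1.17.1. The counting steps were tested on simulated data. The members and the pathway lists were chosen with earlier results of these data known. Text names the 9 genes, genes at their summits, list genes with a region of at least 2 libraries, at most 6 more per list nearest to a gene end, and 3 like genes per member with such a region. Alternatives changed the distance, gap, score threshold, list length and number of libraries, and left out each library. With 1 group and no control library, no test was made. Read numbers and peak widths were not used here.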

Additional observations from a re-analysis of the deposited data

How the results depend on the processing

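Of 100 recomputed counts, 64 stayed within 1.5 times the reported one. These include counts of 0 that stayed 0. Some of those could not rise when a library was left out, as for the other CCN genes. The 64 is thus no measure of stability. Distances of 5, 10 and 100 kb gave 6, 7 and 8 of the 9 genes with a summit. The share of all coding genes was 20.4% within 5 kb and 35.0% within 50 kb. That share was not computed for 10 and 100 kb or for shortened lists, so those counts have no background beside them. Gaps of 100 and 500 bp both gave 2 genes with a region of at least 2 libraries. Summits at or above the list median gave 3 genes with a summit, 0 in at least 2 libraries, 0 with a region, 0 shared summits and 1.0 summit per library. Lists held to the length of the shortest gave 4, 1 with a region, 2 shared and 2.33 per library. Requiring all 3 libraries gave 0 genes with a region. Counting within 1 kb of a transcript start, chosen after seeing the data, gave 2 of the 6 genes with tabulated starts, beside 16.3% of coding genes.

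Leaving out each replicate gave 3 to 7 genes with a summit, 1 to 2 in at least 2 libraries and 0 to 2 with a region. Shared summits ranged from 0 to 4 and summits per library from 2.5 to 5.0. The count of 3 genes came without replicate 3, beside 13.6% of coding genes, against 35.0% with all libraries. For any library the upstream list ranged from 6 to 12, partners 3 to 6, targets 0 to 4 and AP-1 1 to 5. The lowest count of each came without replicate 3, beside 7.32% of coding genes, against 20.4% with all libraries. For regions of at least 2 libraries, upstream, partners and AP-1 each ranged from 0 to 1. With a library left out, the share of all coding genes was computed for no other of these counts. Within 50 kb, any library gave 15 of 22 upstream genes, 10 of 21 partners and 7 of 24 targets. It gave 1 of 4 other CCN genes and 5 of 13 AP-1 genes, beside 35.0% of all coding genes. Regions within 50 kb gave 2 of 22 upstream genes, and the share of all coding genes was not computed for these. Without chromosome 8, chosen after seeing the data, partners had 0 regions and targets 2 genes with a summit. Within 1 kb of a gene end, also chosen after seeing the data, partners had 2 of 21 genes and targets 2 of 24, beside 15.1% of coding genes. The cause was not tested. No paired analysis was possible because the libraries form 1 group. Read depth is unknown, so a gene without a summit in a list is not shown to be unbound.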

Other observations

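AP-1 factors, which often sit beside TEAD on enhancers, had a summit inside the gene or within 5 kb at 5 of 13 genes (38.5%), beside 20.4% of all coding genes. ATF2, a bZIP factor gene, had the 1 region of 2 libraries (beside 3.47% of coding genes), with summits 102 bp (replicate 1, score 6.76) and 235 bp (replicate 3, score 7.64) inside its end. The others had single replicate 3 summits outside the gene. JUND had it at 146 bp (5.55), FOSB at 148 bp (6.13), JUN at 356 bp (6.61) and FOSL1 at 1165 bp (6.99). Without replicate 3 the count was 1 of 13, ATF2, beside 7.32% of coding genes.

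Many summits of a list carry exactly the same score. Scores held by more than 1 summit made up 57.0% of replicate 1, 66.8% of replicate 2 and 83.1% of replicate 3, where 216 summits scored 4.77. Of the 12 summits near the YAP, TEAD and CCN genes, those of replicate 1 at YAP1 and CCN1 and of replicate 3 at AMOTL2 had a score of their own. Ranks given for the others are the best rank of their tie.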
